A study of Mus musculus with 2 samples.

Results

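Interleukin-10 and the type 2 cytokine genes are 9 genes of mouse CD8 T cells, namely the cytokine genes Il10, Il4, Il5, Il13, Il24, Il9 and Il3 and the transcription factor genes Gata3 and Maf. They were chosen by name, with earlier results of the same comparison known, out of 23462 genes with a probe on the array, and are followed here through every non-control probe they have. All 9 were on the array, with 11 of its 56605 probes. Il24 and Il3 had 2 probes each, and the other 7 genes had 1. Of the 9 genes, 5 were measured in both cultures, Il4 was seen with prednisolone only, and Il5, Il13 and Il9 were not well above background in either.

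Both cultures began as C57BL/6 splenic naive CD8 T cells (low CD44, high CD62L). The prednisolone culture received this synthetic glucocorticoid at 1 µM during a stimulation of 2 days on immobilized anti-TCR-β at 3 µg/ml and anti-CD28 at 1 µg/ml, and the vehicle culture was stimulated in the same way without it. Interleukin-2 (10 ng/ml), a T cell growth factor, was in the medium of both throughout, including 3 further days on a new plate with neither antibody nor prednisolone listed, so the RNA is of day 5. The number, age and sex of the mice are not given in the sources used here. No agent that directs cells to make type 2 cytokines is listed for either culture. There was 1 prednisolone and 1 vehicle array, so no difference below has a test or a p-value, and the spread between cultures is unknown.

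Interleukin-10 is a cytokine that dampens immune responses, and activated T cells, including CD8 T cells, can make it. Interleukins 4, 5 and 13 are the type 2 cytokines, best known from helper T cells that act against worms and in allergy, and their genes lie close together. In helper T cells GATA3 is the factor that opens this gene cluster, while MAF binds the Il4 promoter and also promotes Il10.

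On each array 53.5% of 59305 non-control spots were well above background, and none was saturated. Signals are the scanner software's background-subtracted intensity units, and ± is its own error. Differences are log2 values, prednisolone minus vehicle, after each array was set to its 75th percentile (386.9 intensity units with prednisolone and 400.4 with vehicle). The lowest signal counted as well above background was 11.8 units with prednisolone and 12.9 with vehicle. No member probe carried an outlier flag. Fkbp5, a gene that glucocorticoids induce, was 5.94-fold higher (2.57 ± 0.14). Cd8a was −0.01 ± 0.14, and the CD8 T cell markers with a value, 7 of 12, lay between −0.95 (Cd247) and −0.01. The Cd247 value is the mean of unlike probes, at −0.47 and −1.42. The probe at −1.42 was dim, with 16.0 units with prednisolone and 44.1 with vehicle.

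Il10 and Il4 were far higher in the prednisolone culture, while the other type 2 cytokine genes were not. Il10 gave a signal of 335 ± 33.6 intensity units with prednisolone, against 17.9 ± 3.43 with vehicle, which was 19.3-fold higher (4.27 ± 0.31 on the log2 scale). The vehicle signal was well above background but only 5.22 times its own error. On that array 1 of 308 negative control spots was as bright, and 0 of the 269 without an outlier flag. Il4 gave 476 ± 47.7 units with prednisolone, against 10.1 ± 3.22 with vehicle, where it was not well above background. It was therefore at least 38.3-fold higher, a bound set by the lowest signal well above background on the vehicle array. The gap was also visible in the unscaled spots: the median pixel of the Il4 spot stood 422 units above its local background with prednisolone and 16 with vehicle, and that of the Il10 spot 305 with prednisolone and 19 with vehicle. Both genes rest on 1 probe each. In RNA of a whole culture, more cells that make a transcript and more transcript per cell cannot be told apart.

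A 2-fold limit was passed upward by 2 of the 6 members with a value and downward by 1, Il24. It was passed upward by 6.87% and downward by 7.82% of all 13135 genes with a value. Since the members were picked with this comparison known, their counts are a description and nothing is read from them against those shares. The median of the 6 members was 0.19, and that of all genes was 0.00. Among the 11968 genes measured on both arrays, Il10 ranked 11th from the top. The size of both large differences depended on the background correction. After normexp, which adds an offset of 50 to every spot, Il10 was 2.27 and the Il4 bound 2.73.

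**Figure D1:**
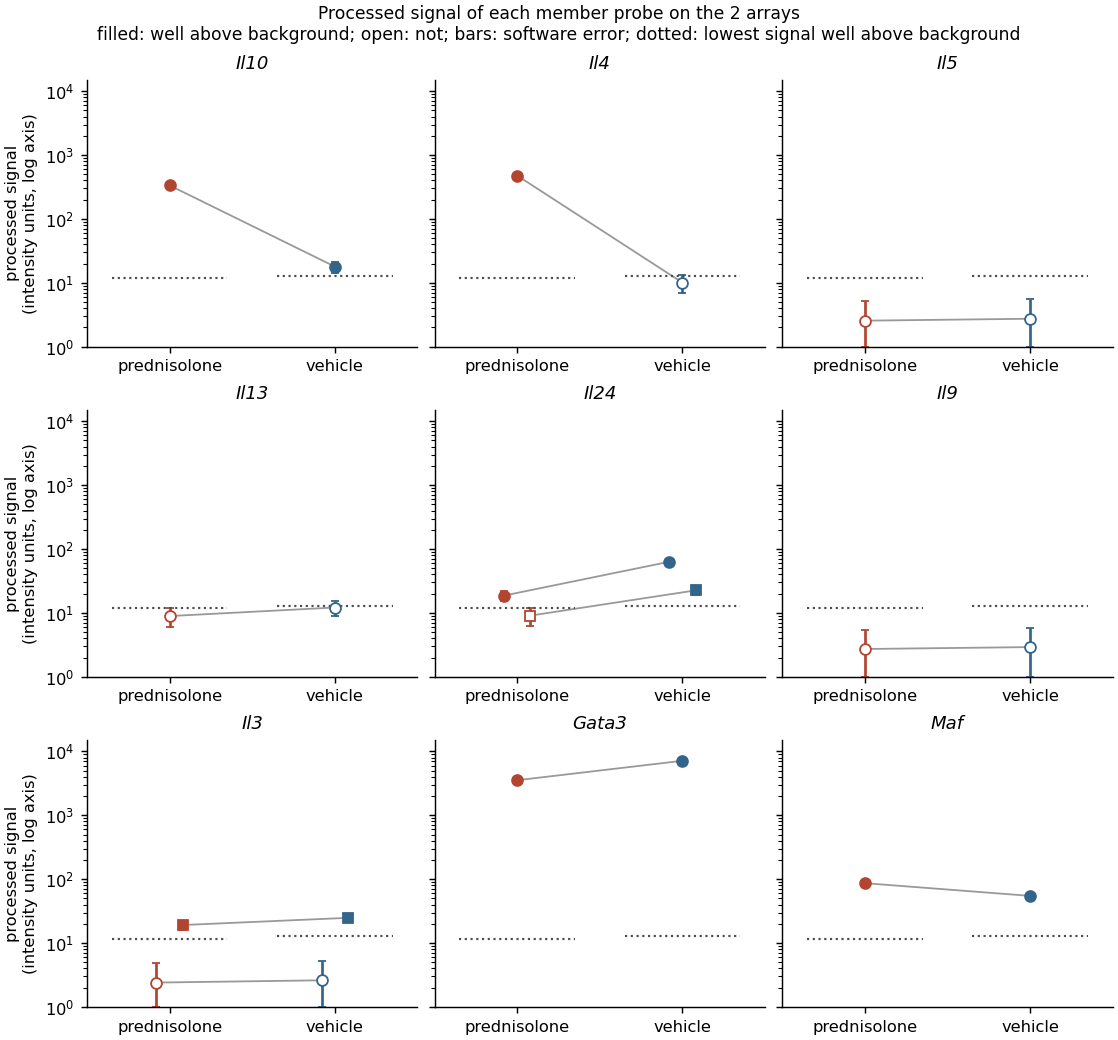
Processed signal (intensity units, log axis) of each member probe with prednisolone (left) and vehicle (right). Filled points were well above background, open points were not, bars are the software's error, and dotted lines mark the lowest signal well above background; bars of signals no larger than their error are drawn down to the axis. Il10 and Il4 stand at 335 and 476 units with prednisolone, against 17.9 and 10.1 with vehicle, while Il5 and Il9 stay near 3 units on both arrays.

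The Il4 result is set beside the promoters of its neighbours Il13 and Il5, since all 3 genes share a cluster on chromosome 11 and differed in these cultures. RefSeq promoter entries of build GRCm38.p6 matched 6 of the 9 members (Il4, Il5, Il13, Il9, Il3 and Gata3). The 250 bases before the start site are shown 5′ to 3′ on the gene's strand, with matches to the MAF core (TGCTGA) and to GATAA in capitals, on either strand.
Il4, chr11:53618666-53618915, minus strand: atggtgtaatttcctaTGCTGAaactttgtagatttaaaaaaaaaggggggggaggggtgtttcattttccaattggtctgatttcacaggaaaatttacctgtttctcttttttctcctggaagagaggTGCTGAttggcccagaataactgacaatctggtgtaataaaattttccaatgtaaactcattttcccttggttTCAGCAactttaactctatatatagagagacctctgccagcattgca
Il13, chr11:53634703-53634952, minus strand: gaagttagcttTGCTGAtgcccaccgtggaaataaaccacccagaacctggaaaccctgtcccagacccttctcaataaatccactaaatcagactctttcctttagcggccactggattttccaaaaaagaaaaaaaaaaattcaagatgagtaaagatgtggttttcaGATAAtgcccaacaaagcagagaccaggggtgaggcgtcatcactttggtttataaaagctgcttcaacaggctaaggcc
Il5, chr11:53720544-53720793, plus strand: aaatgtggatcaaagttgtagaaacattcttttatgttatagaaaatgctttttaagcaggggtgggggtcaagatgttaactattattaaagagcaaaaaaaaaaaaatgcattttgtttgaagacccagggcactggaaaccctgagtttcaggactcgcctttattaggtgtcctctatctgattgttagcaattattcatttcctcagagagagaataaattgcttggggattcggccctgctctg

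The Il4 window held the MAF core 3 times, beginning 234, 120 and 47 bases before the start site, the last of these lying on the opposite strand. The Il13 window held it 1 time, 239 bases before the start site, and GATAA 80 bases before it, and the Il5 window held neither. Of 32851 promoter windows of this length 16.1% held the MAF core and 22.6% held GATAA. The NFAT core (GGAAA), bound by a factor that T cell receptor signalling activates, was present 5 times before Il4, 4 times before Il13 and 2 times before Il5, and 55.6% of all windows held it. These 3 windows had no match to the glucocorticoid receptor core AGAACA (16.1% of all windows), to its spaced repeat ACANNNTGT (5.84%) or to the AP-1 site TGANTCA (6.75%), and no match in them overlapped another. A second Il4 start in RefSeq had none of these 6 motifs. Across the other members, the Il3 window held GATAA 2 times and ACANNNTGT 1 time, overlapping a GGAAA, the Il9 window TGANTCA 1 time, and the Gata3 window the MAF core 1 time. A match is a run of letters and not evidence of binding. Only these exact letters were searched, so a window without a match may still hold a site in another form.

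The remaining type 2 cytokine genes were at or near background in both cultures. Il5, the eosinophil growth factor, gave 2.55 ± 2.56 units with prednisolone and 2.74 ± 2.75 with vehicle. Il9, a growth factor of mast cells and T cells, gave 2.72 ± 2.73 units with prednisolone and 2.92 ± 2.93 with vehicle. These signals were no larger than their error, and 216 of 308 negative control spots were at least as bright as Il5 on each array. Il13, the closest relative of Il4, gave 8.93 ± 2.94 with prednisolone and 12.2 ± 3.23 with vehicle, just below the limit on both arrays. Of all 308 negative control spots, 7 with prednisolone and 2 with vehicle were as bright. Among those without an outlier flag, 0 of 257 with prednisolone and 0 of 269 with vehicle were. No fold is given for these 3 genes. Il4 and Il13, adjacent in the genome and often made together by helper T cells, thus differed here: Il4 was well above background with prednisolone and Il13 was not in either culture.

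Il3, a growth factor of early blood cells, was dim. Its brighter probe gave 19.2 ± 3.22 units with prednisolone and 24.8 ± 3.72 with vehicle, a difference of −0.32 ± 0.32 that was no larger than its error. Its other probe was not well above background in either culture (2.41 units with prednisolone and 2.61 with vehicle). Il24, a cytokine of the interleukin-10 family, was lower with prednisolone. One probe gave 18.7 ± 3.11 units with prednisolone, against 63.2 ± 6.87 with vehicle, which was 3.27-fold lower (−1.71 ± 0.29). The other probe of Il24 gave 9.08 ± 2.79 units with prednisolone and 22.5 ± 3.62 with vehicle, was well above background with vehicle only, and was at least 1.85-fold lower. The probes lay in the same direction, but after normexp the difference of Il24 was −0.65 and no longer 2-fold.

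The transcription factor genes differed far less than Il4. Gata3 was the brightest member, at 3536 ± 354 units with prednisolone, against 7123 ± 712 with vehicle, and was 1.95-fold lower (−0.96 ± 0.20). It thus lay just inside 2-fold, and passed it with no scaling (−1.01) and after quantile normalization (−1.02). Maf gave 86.6 ± 8.97 units with prednisolone and 54.8 ± 6.03 with vehicle, which was 1.64-fold higher (0.71 ± 0.22), or 0.35 after normexp. In the prednisolone culture Il4 was therefore detected beside less Gata3 and somewhat more Maf, each by 1 probe.

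**Figure D2:**
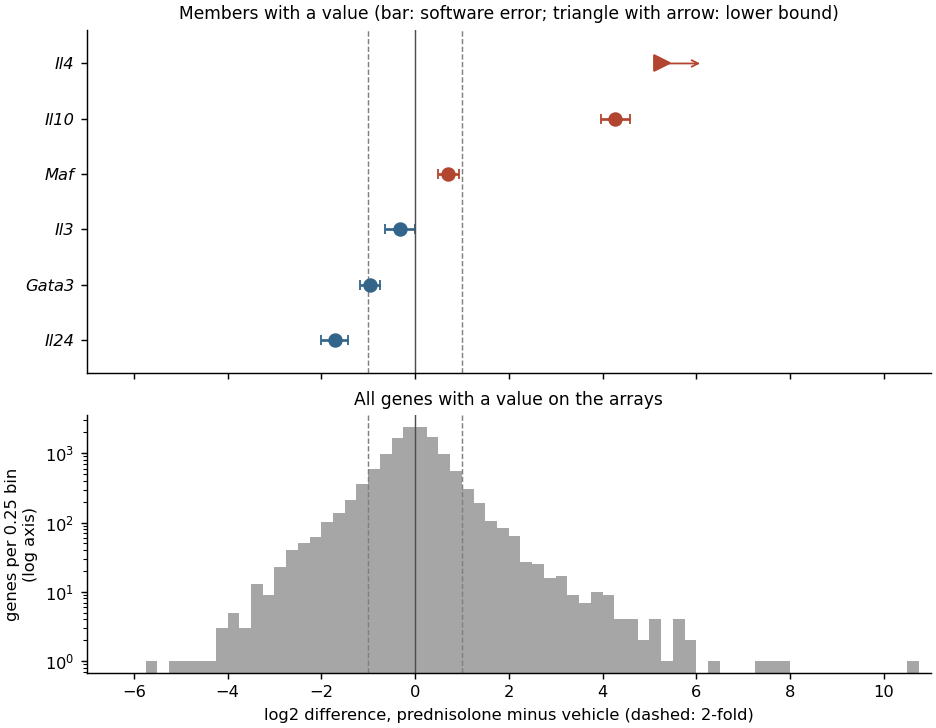
Log2 difference, prednisolone minus vehicle, of the 6 members with a value (upper panel) above the distribution over all 13135 genes with a value (lower panel, number of genes on a log axis). Bars are the software's error, the triangle with an arrow is a lower bound, and dashed lines mark 2-fold. Il4 (at least 5.26) and Il10 (4.27) lie far to the right, Maf (0.71), Il3 (−0.32) and Gata3 (−0.96) lie inside 2-fold, and Il24 (−1.71) lies to the left.

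The interleukin-10 family differed in direction within its gene cluster on chromosome 1, where RefSeq orders the genes Il24, Il20, Il19 and Il10. Il19 was higher with prednisolone: its probes gave 107 and 39.4 units with prednisolone and 2.77 and 13.7 with vehicle, where neither was well above background. It was at least 8.61-fold higher by its brighter probe, a bound of 1.28 on the log2 scale after normexp. The other Il19 probe was 2.97-fold higher. That value is a plain ratio of the scaled signals and not a bound, as its vehicle signal exceeded the lowest one counted as well above background. Il20 was not well above background in either culture. Il22, another member of the family, which lies outside the cluster, was above background with vehicle only and at least 1.22-fold lower. Of the 5 family genes 4 had a value. Il10 and Il19 passed 2-fold upward and Il24 downward, beside 6.87% and 7.82% of all genes with a value. This list, too, was chosen with earlier results of these data known. Beyond Il10, Mapkapk2, which encodes a kinase of the p38 pathway, was −0.03 ± 0.20 and the kinase gene Dyrk3 was 2.64-fold higher (1.40 ± 0.20).

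Around Il4 the nearest measured genes lay near 0. Kif3a, a motor protein gene on one side, was 0.07 ± 0.15, the mean of probes in opposite directions (−0.36 and 0.50). Rad50, the DNA repair gene between Il13 and Il5, was 0.18 ± 0.20. Septin8, a cytoskeletal gene next to Kif3a, was 8.65-fold higher (3.11 ± 0.16), although its measured probes differed, at 4.43 and 1.80. P4ha2, a prolyl hydroxylase gene near Il3, was 2.75-fold lower, and Acsl6, next to Il3 on the other side, was at least 2.01-fold higher, a bound of 0.20 (log2) after normexp. Over all 39 protein-coding neighbours, up to 3 on each side of each member, 24 had a value, with a median of 0.14. Of the 24, 4 passed 2-fold upward and 1 downward, beside 6.87% and 7.82% of all genes with a value.

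**Figure D3:**
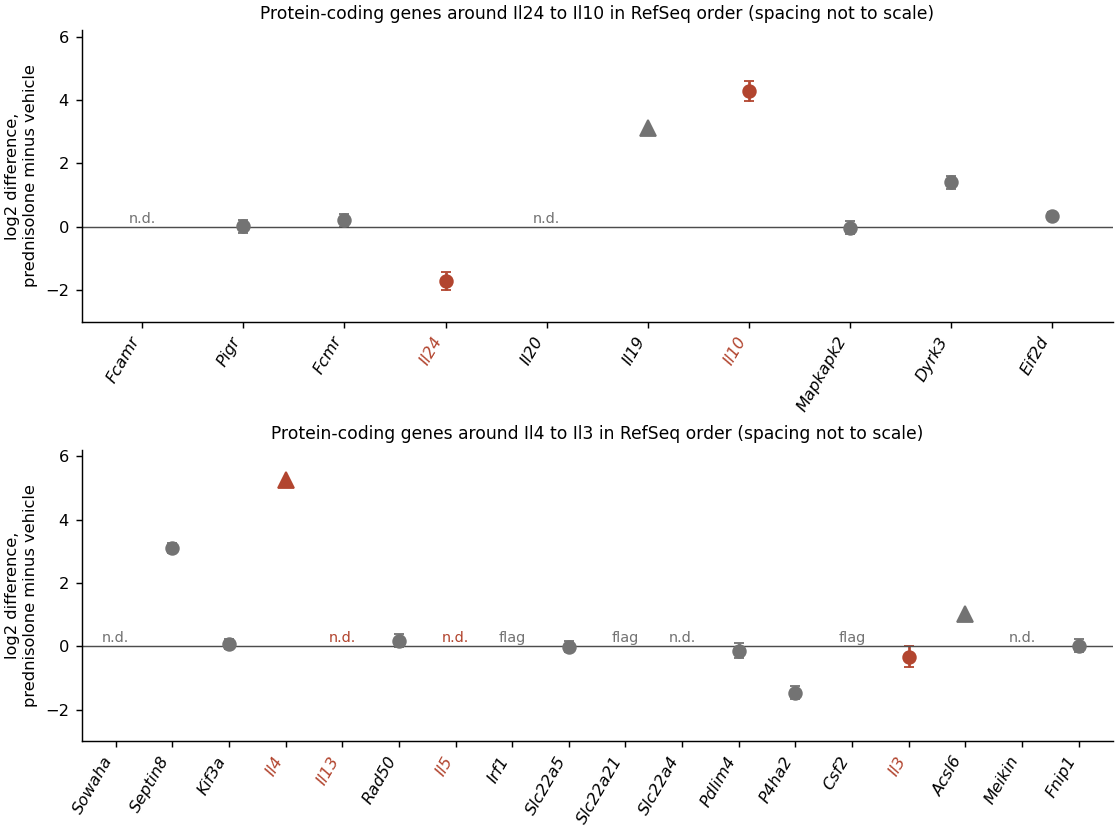
Log2 difference, prednisolone minus vehicle, of protein-coding genes in RefSeq order around Il24 to Il10 (upper panel) and Il4 to Il3 (lower panel), members in red. Bars are the software's error, triangles are bounds, n.d. marks genes not well above background in either culture and flag marks genes whose spots all carried an outlier flag. Il10 with Il19, and Il4 with Septin8, stand above 3 while Mapkapk2, Kif3a and Rad50 lie near 0.

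Among factors that restrain type 2 cytokines or Il10, every gene with a value was below 0. This and the lists below were chosen with earlier results of these data known. Of the 13 genes 10 had a value, all below 0, and 5 were at least 2-fold lower, the list's median being −1.10. Over all genes with a value, 50.1% were below 0 and 7.82% at least 2-fold lower. The 7 CD8 T cell markers with a value, which share Runx3 (−0.67) with the restraining list, were also all below 0, with a median of −0.42. Of those 7 markers, 6 were below 0 with scaling on the median and 5 with spike-in scaling. Under each of the 10 alternative settings every restraining gene with a value was below 0 and 5 were at least 2-fold lower. The median of the restraining genes was −0.74 with flagged spots kept and −0.70 with no filter on dim probes. Bcl6, a repressor of the type 2 program, gave 73.2 units with prednisolone, against 540 with vehicle, and was 7.13-fold lower (−2.83 ± 0.21). Eomes, a T-box factor of type 1 and memory CD8 T cells, was 5.19-fold lower (542 units with prednisolone and 2908 with vehicle). Also at least 2-fold lower, and named after their values were seen, were Stat4 (−1.54 ± 0.20), which carries interleukin-12 signals, and Bhlhe40 (−1.41 ± 0.20), a repressor of Il10. Tbx21, the gene of the type 1 factor T-bet, was −0.32 ± 0.20.

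Factors that promote type 2 cytokines or Il10 went both ways. Of 20 genes 18 had a value, with a median of −0.16 (0.07 with scaling on spike-in probes). Of these 18, 1 passed 2-fold upward and 2 downward, beside 6.87% and 7.82% of all genes with a value. Irf4, a factor that T cell receptor signalling induces and that binds Il4 and Il10, gave 4784 units with prednisolone, against 1150 with vehicle, and was 4.30-fold higher (2.11 ± 0.20). Its second probe carried an outlier flag and gave 0.36, so that with flagged spots kept Irf4 was 1.23. Nfil3, a factor tied to Il4 and Il10 in T cells, was 3.15-fold lower, with both probes near each other (−1.68 and −1.63). Gfi1, which supports growth of type 2 cells, was −1.15 ± 0.20, or −0.91 with spike-in scaling. Stat6, the factor downstream of the interleukin-4 receptor, was −0.38 ± 0.20.

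Receptors and products associated with type 2 T cells were mixed but included several large differences. Of 15 genes 10 had a value, 5 past 2-fold upward and 1 downward, beside 6.87% and 7.82% of all genes with a value. The median of the 10 genes was 0.93, or 0.27 after normexp. Penk, the preproenkephalin gene, gave 229 units with prednisolone, against 14.0 with vehicle, and was 17.0-fold higher (2.003 on the log2 scale after normexp). This rests on 1 probe, as the other Penk probe was not well above background in either culture (2.88 units with prednisolone and 3.07 with vehicle). Ccr4, a chemokine receptor of type 2 and regulatory T cells, gave 1501 and 371 units with prednisolone, against 192 and 46.3 with vehicle, and was 8.18-fold higher with close probes (3.01 and 3.05). Ecm1, Icos and Ccr8, named after their values were seen, were 8.14-fold, 4.95-fold and 2.05-fold higher, the last being 0.29 (log2) after normexp. Tnfsf11, the gene of the cytokine RANKL, was 3.69-fold lower, or −0.57 (log2) after normexp. Il1rl1, the receptor of interleukin-33, was −0.72 ± 0.21, and Ccr3, Areg, Il31 and Hpgds were not well above background.

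**Figure D4:**
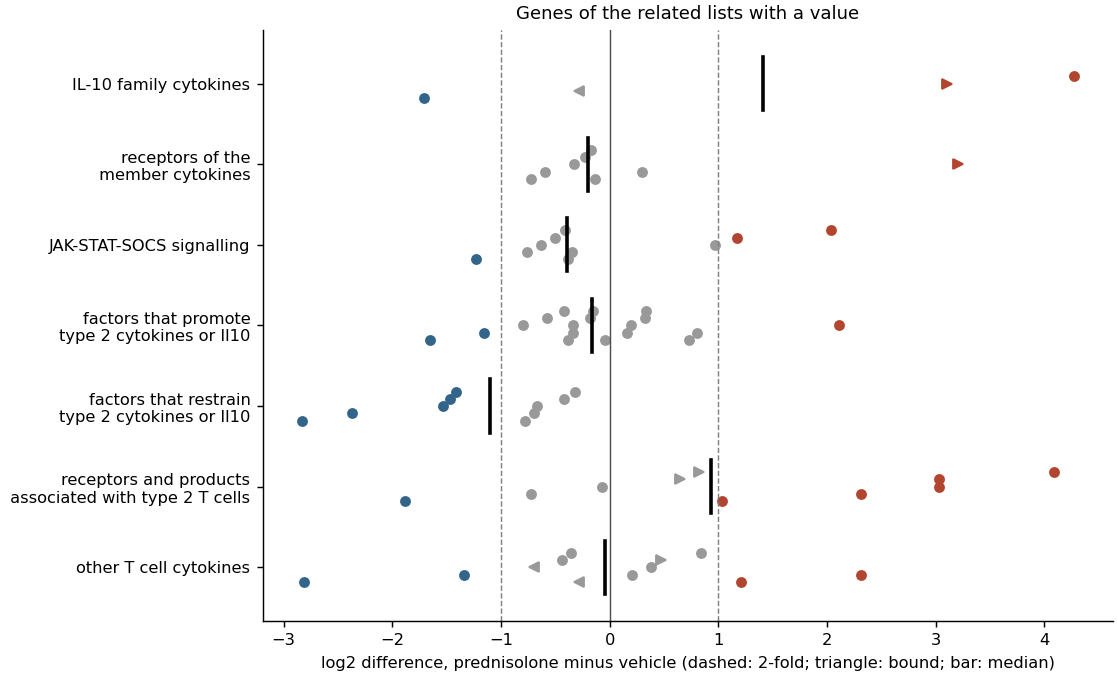
Log2 difference, prednisolone minus vehicle, of each gene with a value in 7 lists related to the members. Points are genes, triangles are bounds, black bars are list medians, dashed lines mark 2-fold, and red and blue mark genes at least 2-fold higher and lower. For Il22 the triangle is a plain ratio and not a bound. The restraining factors with a value lie left of 0, with a median of −1.10.

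Receptors for the member cytokines mostly lay within 2-fold. Of 14 genes 8 had a value, with a median of −0.20 (0.04 with spike-in scaling). Only 1 passed 2-fold, upward, beside 6.87% upward and 7.82% downward of all genes with a value. The exception was Il20ra, a receptor chain for Il19, Il20 and Il24, with 115 and 16.3 units with prednisolone, against 4.43 and 7.74 with vehicle. It was at least 9.22-fold higher by its brighter probe, a bound of 1.38 (log2) after normexp, and at least 1.31-fold higher by the other. Il10ra was −0.60 ± 0.14 and Il4ra −0.23 ± 0.15, with Il4ra probes at −0.50 and 0.04. Il13ra1, Il13ra2, Il5ra, Il9r and Csf2rb2 were not well above background. Among the kinases, STAT factors and SOCS inhibitors downstream of these receptors, 10 of 12 had a value, with a median of −0.39. The inhibitors Socs2 and Socs1 were 4.10-fold and 2.25-fold higher. Stat3, a transducer of interleukin-10 signals, was 2.35-fold lower, or −0.66 (log2) after normexp and −0.99 with spike-in scaling. This Stat3 value rests on its dimmer probe, at 44.3 units with prednisolone and 108 with vehicle. The brighter Stat3 probe, at 3560 with prednisolone and 6497 with vehicle, carried an outlier flag on the prednisolone array and gave −0.82, inside 2-fold.

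Other T cell cytokines lay in both directions. Of 20 genes 12 had a value, with a median of −0.04. Among these 12, 2 passed 2-fold upward and 2 downward, beside 6.87% and 7.82% of all genes with a value. With flagged spots kept 16 had a value, 2 past 2-fold upward and 5 downward, with a median of −0.32, and with spike-in scaling 3 passed upward and 2 downward, with a median of 0.20. Ifng, the type 1 cytokine interferon γ, gave 71.9 units with prednisolone, against 524 with vehicle, and was 7.04-fold lower (−2.82 ± 0.21). Ltb, which encodes lymphotoxin β, was 2.54-fold lower. Ccl5, a chemokine of CD8 T cells, was 4.97-fold higher. Osm, the gene of oncostatin M, was 2.31-fold higher, or 0.88 (log2) after normexp. Tnf was 0.84 ± 0.14, and Il2 was not well above background in either culture.

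By size of difference alone, the genes nearest to Il10 were M1ap (4.73), Chil5 (4.63) and Serf1 (4.43) just above it and Tmprss13 (4.12), Penk (4.08) and Me1 (4.05) just below. This likeness rests on the difference between 2 arrays and says nothing more about these genes.

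Among markers of other cell types, those of mast cells and basophils, which can make interleukin-4, were mostly at background. Of 13 markers of mast cells, basophils and eosinophils, 10 were not well above background in either culture, among them Fcer1a, Ms4a2, Cpa3 and Mcpt8, which stood between 2.54 and 2.73 units with prednisolone and between 2.71 and 9.54 with vehicle. Kit was 3.89-fold higher (1.96 ± 0.21) and Hdc was −0.65 ± 0.25. The summed signal of that list, taking the brightest unflagged probe of each gene, was 444 units with prednisolone and 194 with vehicle. Kit alone gave 383 of these units with prednisolone and 102 with vehicle. The summed signal of CD4 T cell markers was 1628 units with prednisolone and 2324 with vehicle. Most of it came from Ctla4, which gave 907 with prednisolone and 1577 with vehicle. Cd4 itself gave 656 with prednisolone and 640 with vehicle, and Foxp3 was −0.75 ± 0.22. Type 2 innate lymphoid cell markers summed to 618 with prednisolone and 1878 with vehicle, with Rora 3.92-fold lower and Il17rb, above background with prednisolone only, at least 1.77-fold higher. NKT cell markers summed to 30233 units with prednisolone and 26768 with vehicle, of which Il2rb, a gene that CD8 T cells also express, gave 26259 with prednisolone and 23979 with vehicle, and Klrk1 was 0.58 ± 0.20. Klrb1c was 0.07 ± 0.32. The brighter probe of Zbtb16, flagged on the prednisolone array, gave 29.1 units with prednisolone and 13.5 with vehicle, where it was not well above background. Its other probe was not well above background in either culture (2.74 units with prednisolone and 2.94 with vehicle). B cell markers summed to 23.9 with prednisolone and 26.6 with vehicle, with 4 of 7 not well above background and Pax5 at −0.09 ± 0.44, while Cd79b, known only from a flagged spot, gave 1623 with prednisolone and 1063 with vehicle. Macrophage and dendritic cell markers summed to 6929 with prednisolone and 13547 with vehicle, mostly from H2-Ab1, which gave 6508 with prednisolone and 12271 with vehicle. In that list Cd68 was 4.65-fold lower, and Cd74 was seen with vehicle only and lower by at least 4.61-fold (a bound of −0.74 on the log2 scale after normexp). Csf1r was 0.23 ± 0.21, while its brighter probe, flagged on both arrays, gave −0.23. Cd14 gave 13.7 units with prednisolone and 11.1 with vehicle, where it was not well above background. Its bound of 1.10-fold higher (0.14 on the log2 scale) was smaller than the software's error of 0.51. Lyz2 and Itgax were not well above background. The part of any such cells in the Il4 and Il10 differences was not tested.

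**Figure D5:**
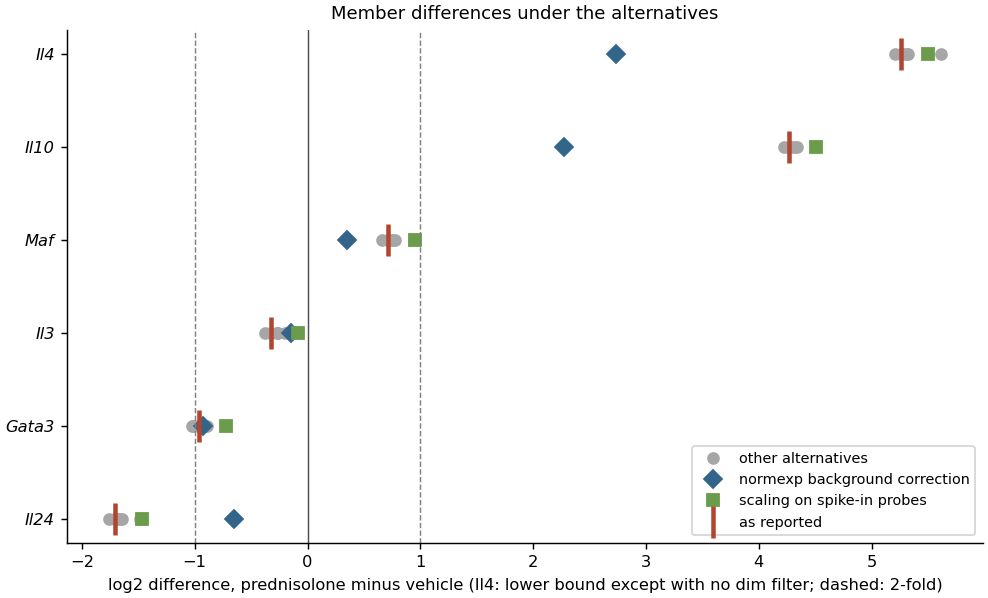
Log2 difference, prednisolone minus vehicle, of the 6 members with a value as reported (red bars) and under up to 10 alternatives. Blue diamonds are normexp background correction and green squares are scaling on spike-in probes. Il10 ran from 2.27 to 4.51 and the Il4 value from 2.73 to 5.61, and no member changed sign.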

How the data were processed

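RNA (100 ng) of each culture was labelled with Cy3, per the labels, and read on an Agilent mouse array in 1 colour. The deposited scanner files hold intensity values, background-subtracted and detrended by Agilent Feature Extraction 12.0.3.1, per the file headers. A second deposited table is the same intensity times 1 constant per array (0.858 for prednisolone and 0.792 for vehicle, chosen on a basis that is not stated), linear and not centred, with medians of 16.4 and 16.2. Both arrays lay on the same slide.

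Values were log2 of the processed signal minus each array's 75th percentile, without control or outlier-flagged spots (5291 with prednisolone and 4270 with vehicle). A gene is the mean of its probes well above background on both arrays. Otherwise its brightest probe gave a bound. That value is a plain ratio where the dimmer signal exceeded the lowest one counted as well above background. Transcript accessions named 33767 probes through RefSeq GRCm38.p6; the headers name mm9, so the only coordinates given are those of the RefSeq promoters, in GRCm38.p6. The planned normexp (limma 3.58.1, offset 50) used median signals, as the files hold no mean signal. With 1 array per group, the number of arrays limits the precision. Calculations used pandas 2.3.3 and numpy 2.4.6, and the procedure was tested on simulated data.

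The members and lists were chosen with earlier results of these data known. Genes were named by rule: every member, from each list the 2 genes highest and the 2 lowest past 2-fold (or the single gene farthest from 0), a fixed set of anchor genes, the 3 genes on each side of Il10 in difference, and neighbours at least 2-fold apart. Other genes were named after their values were seen.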

Additional observations from a re-analysis of the deposited data

Results flagged for a closer look

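Among 17 list and neighbour genes whose spots all carried an outlier flag and so had no value in the comparison, 2 were at least 2-fold higher with prednisolone and 3 at least 2-fold lower when those spots were used. The lower ones, Csf2, Xcl1 and Lta, are given with the other observations. Across the whole array, keeping flagged spots put 978 of 14135 genes past the 2-fold limit upward and 1122 downward. The 17 genes belong to lists, or lie beside members, that were chosen with earlier results of these data known. Their counts are therefore a description, and nothing is read from them against those of the whole array. Pparg, a nuclear receptor gene that also acts in type 2 T cells, gave 951 units with prednisolone and 112 with vehicle (3.13 ± 0.21). Ptgir, the prostacyclin receptor gene, gave 287 units with prednisolone and 63.0 with vehicle (2.24 ± 0.22). Each rests on 1 probe.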

How the results depend on the processing

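Each member with a value was recomputed under 10 alternatives, which gave 59 values, of which 53 moved by less than the software's error and none changed sign. After normexp Il10 was 2.27, the Il4 bound 2.73, Il24 −0.65 and Maf 0.35, and the count of members at least 2-fold lower was 0. Scaling on 8 spike-in probes adds 0.24 to every difference, gave Gata3 −0.72 and Maf 0.95, and moved the share of higher genes among all genes 2-fold apart to 68.0% (46.8% in the main setting). With no scaling and after quantile normalization Gata3 passed 2-fold, so the count of lower members was 2 in both; the cause of the other shifts was not tested. The count of higher members was 2 under every alternative. Normexp, whose offset pulls dim signals together, gave 429 genes higher and 434 lower, against 902 and 1027 in the main setting, and scaling on spike-in probes 1429 and 671. Il3 had no value under the stricter filter on dim probes. With no filter on dim probes Il4 was 5.61, which sets a signal near background as its divisor, and 1460 genes were higher and 1701 lower. Over the other 48 named genes with a value, 76 of 477 values moved by more than the error, 50 toward 0, and none of those at least 2-fold apart reversed. No paired analysis was possible because each group has 1 array. Leaving out a replicate was not possible for the same reason.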

Other observations

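Csf2, the gene of the growth factor GM-CSF, lies next to Il3, and its only probe carried an outlier flag on the vehicle array. With that spot used it gave 19.3 units with prednisolone and 122 with vehicle (−2.62 ± 0.28). Further cytokine genes known only from flagged spots lay in the same direction, Xcl1 (14.9 units with prednisolone and 87.9 with vehicle, −2.51 ± 0.33) and Lta (2083 units with prednisolone and 5742 with vehicle, −1.41 ± 0.20), while Ccl3 was 0.43 ± 0.24. Irf1, the type 1 factor gene next to Il5, was −0.70 ± 0.14 from 2 flagged probes. These genes were named after their values were seen.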
